A study of Mus musculus with 19 samples.

Results

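The genes described here are 10 components of Toll-like receptor sensing in mouse endometrium, listed by symbol with earlier results of these data known: the receptors Tlr1, Tlr2, Tlr3, Tlr4 and Tlr5, the accessory proteins Cd14 and Ly96, the adaptor Myd88, the transcription factor subunit Nfkb1 and the inhibitor Nfkbia. They were matched through GENCODE symbols on GRCm38 to 10 of the 49089 genes in the deposited RNA-seq counts, and all 10 were abundant enough to be tested. The endometrium came from wild-type C57Bl/6 females, scraped from the underlying muscle. Estrous endometrium (CONT, 3 libraries, numbered 1, 2 and 4) was taken from virgin, untreated females around ovulation. Endometrium of the other 4 groups was taken on day 3.5 post-coitum (pc) from females mated to Balb/c males. These females were aged 8 to 14 weeks in the study's methods. After mating with intact males, day 3.5 pc is shortly before embryo attachment. The males were intact in INT (4 libraries) and surgically altered in SVX, SVX_VAS and VAS (4 libraries each). The labels of the altered males contradict each other: the descriptions carry the prefixes SVX, SVX_VAS and VAS, while the titles name the surgeries as vasectomised, seminal vesicle-deficient, and both, in that order. These 3 groups are therefore called by their column prefixes, and no surgery is assigned to them. Embryos are not expected after mating with vasectomised males, so altered groups can differ from INT in embryos as well as in seminal fluid. Each library was made from RNA that the study describes as a pooled sample, without a number of animals per pool, so the tests measure the spread between pools.

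Toll-like receptors are membrane proteins that recognise microbial products and some products of damaged tissue. Tlr1, Tlr2, Tlr4 and Tlr5 act mainly at the cell surface and Tlr3 inside endosomes, and most of them signal through the adaptor Myd88 to release NF-kB, which Nfkbia holds in the cytoplasm. In the uterus they are carried by epithelium, stroma and leukocytes, and the lining meets seminal fluid and bacteria at mating.

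Total counts per library ran from 12661266 to 31781270, and the lowest count of any of the 10 genes in any library was 23, while the upper limit for a gene with no reads was 0.108 to 0.236 CPM, the library-scaled read count. The tissue label was checked against markers: epithelial and stromal markers were abundant in every library. VAS replicates 2 and 3 stood apart from the other 17 libraries, at 189 and 190 on a first principal component that held 48.9% of the variance, against -79.4 to -1.22. Their 50 most abundant genes took 3.60% and 3.61% of the counts, against 8.61% to 10.6% elsewhere, so the calls in VAS against CONT, the order of the means and the Myd88 differences are also given without them, while counts over other gene lists in VAS include them. The sum of 8 epithelial markers, among them Epcam and Krt8, was 4137 to 5655 CPM at estrus, 683 to 2733 in INT, 768 to 1100 in SVX, 890 to 2013 in SVX_VAS and 594 to 2411 in VAS. In INT against CONT, 7 of these 8 markers fell (12.7% of all genes were called lower) and none rose (20.9% were called higher). In such bulk tissue, fewer cells of a type and less RNA per cell cannot be told apart.

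Promoter sequence was looked up for all 10 genes in RefSeq on GRCm38.p6, and 6 of them had an entry. The 250 bases before the start were searched on both strands for the NF-kB consensus, the AP-1 site TGANTCA, the interferon response core (GAAA, any 2 bases, GAAA), the PU.1 core GAGGAAGT and the palindromic estrogen response element. Of all 32851 RefSeq promoters searched this way, 7.25% held the NF-kB consensus, 6.75% the AP-1 site, 2.98% the interferon core, 2.44% the PU.1 core and 0.0639% the estrogen element. The NF-kB consensus was matched before Tlr2, Tlr3 and Nfkbia, the interferon core before Myd88 and the PU.1 core before Tlr1. The 3 below are shown because Nfkbia and Tlr2 are established NF-kB targets and because Myd88 was the member that rose. They hold no base of an annotated exon of the gene, run 5′ to 3′ on the minus strand, and have the matched motif in capitals. They cover chr12:55492648-55492897 (Nfkbia), chr3:83841768-83841858 (Tlr2, where the matches overlap) and chr9:119340042-119340268 (Myd88). The Myd88 stretch lies just before the exon where 2 of its annotated transcripts start, and within an intron of another whose exon starts further upstream, at 119341411.
Nfkbia: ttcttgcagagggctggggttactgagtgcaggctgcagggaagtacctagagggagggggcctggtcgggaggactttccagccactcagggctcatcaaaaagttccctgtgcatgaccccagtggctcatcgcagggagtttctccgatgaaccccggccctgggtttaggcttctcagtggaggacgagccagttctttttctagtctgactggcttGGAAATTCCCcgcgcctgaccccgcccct
Tlr2: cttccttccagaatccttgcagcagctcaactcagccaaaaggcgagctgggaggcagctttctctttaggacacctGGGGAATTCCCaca
Myd88: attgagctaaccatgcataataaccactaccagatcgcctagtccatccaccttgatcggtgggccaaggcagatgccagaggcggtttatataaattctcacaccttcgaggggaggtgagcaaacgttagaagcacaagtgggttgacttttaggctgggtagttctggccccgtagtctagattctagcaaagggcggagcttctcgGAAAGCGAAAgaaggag

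Compared with estrus, Tlr1, Tlr2, Tlr3 and Tlr4 were lower on day 3.5 pc in all 4 mated groups, with Ly96 and Nfkbia, while Myd88 was higher in 3 groups and Nfkb1 moved little. A gene was called at an FDR of 0.05 or less from edgeR's quasi-likelihood test over all 17222 genes tested together with a log2 fold change (logFC) of at least 0.58 in size. In INT against CONT, 7 of the 10 genes were called, against 33.6% of all genes tested. Tlr1, Tlr2, Tlr3, Tlr4, Ly96 and Nfkbia were downregulated (6 of 10, against 12.7% of all genes called lower) and Myd88 was upregulated (1 of 10, against 20.9%). Tlr5, Cd14 and Nfkb1 were not called. The study listed only Adam33 and Aspg as downregulated between these groups, so the 6 falls are not among its calls. The median logFC of the 10 genes was -1.04, against -0.01 over all genes. For 8 of the 10 genes, and 62.3% of all genes, every INT library lay on 1 side of every estrous library.

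The other mated groups were compared with the same 3 estrous libraries, so these comparisons are not independent of the one with INT. In SVX against CONT 9 of the 10 genes were called, 8 lower and Myd88 higher, against 41.6% of all genes (18.5% lower and 23.1% higher), with a median logFC of -1.31. In SVX_VAS against CONT 7 genes were called, 6 lower and Myd88 higher, against 38.6% (16.5% lower and 22.2% higher), with a median of -1.06. In VAS against CONT 7 genes were called, all of them lower, against 40.6% (17.3% lower and 23.3% higher), with a median of -0.90. Without VAS replicates 2 and 3 it was 6 genes, with Tlr1 (logFC -1.31), Tlr2 (-1.56), Tlr3 (-0.96), Tlr4 (-1.17), Ly96 (-1.27) and Nfkbia (-1.28) still called lower, beside 6236 genes called over all, 2272 of them lower. The genes separated from estrus in this way numbered 9 in SVX, 7 in SVX_VAS and 8 in VAS, against 70.9%, 67.5% and 55% of all genes.

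**Figure D1:**
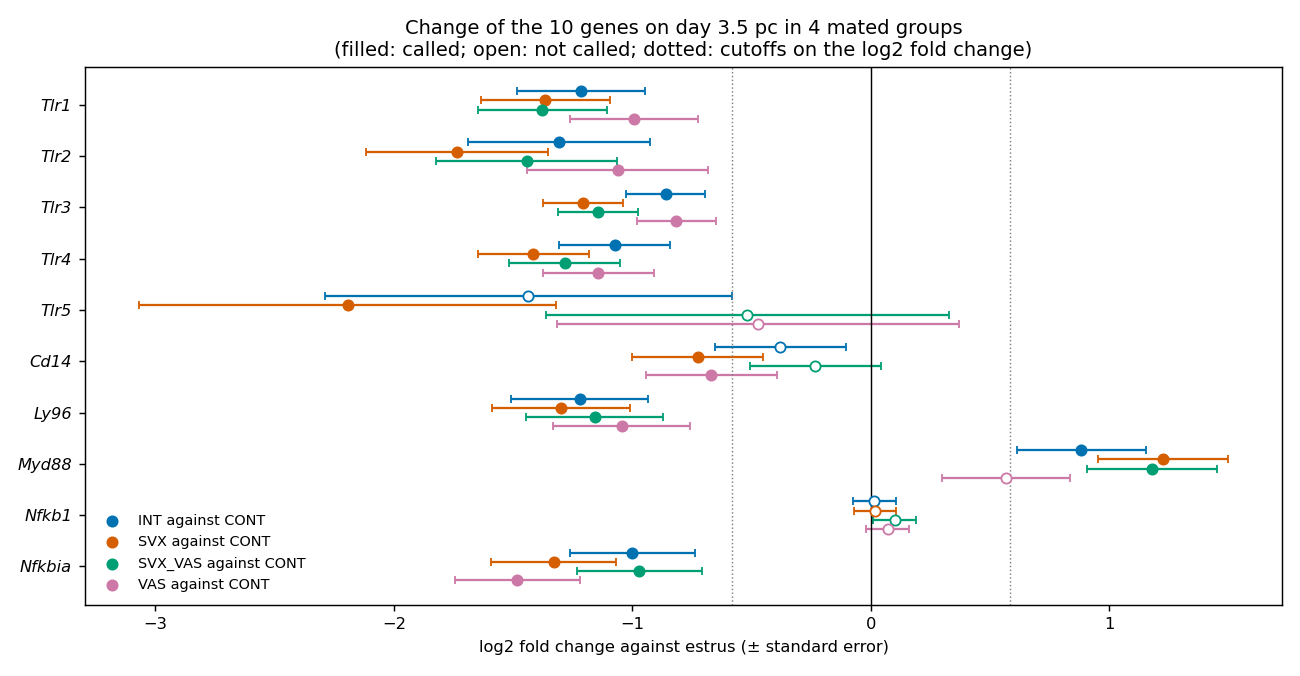
The log2 fold change of each of the 10 genes against estrus (horizontal axis, bars show the standard error) in the 4 mated groups, with filled points for called genes, open points for genes not called and dotted lines at the cutoffs. Tlr1 to Tlr4, Ly96 and Nfkbia lie to the left of the lower cutoff in every group, Myd88 lies to the right of 0 in every group, and Nfkb1 lies between 0.02 and 0.10.

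Tlr4, the receptor for lipopolysaccharide on chr4:66827584-66930284 (plus strand, ENSMUSG00000039005.13), had the most reads of the 5 receptors. It stood at 126, 123 and 118 CPM in the estrous libraries. In INT it stood at 86.1, 63.8, 43.6 and 39.2 CPM, in replicate order. All 4 INT libraries lay below every estrous library, but they spread more widely than the estrous ones, with replicates 1 and 2 the highest. The logFC was -1.07 ± 0.23 (SE, n = 4 against 3, FDR 0.0013), a level 2.11-fold lower. SVX held 48.6, 43.2, 44.5 and 47.4 CPM (logFC -1.41 ± 0.23, FDR 9.36e-05). SVX_VAS held 45.3, 72.6, 36.1 and 47.0 CPM (logFC -1.28 ± 0.23, FDR 0.000261), with replicate 2 above the rest. VAS held 59.2, 61.4, 53.3 and 47.8 CPM (logFC -1.14 ± 0.23, FDR 0.000644), with replicate 2 the highest. The 16 mated libraries all lay below the 3 estrous ones.

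Ly96 encodes MD-2, which Tlr4 needs to bind lipopolysaccharide (chr1:16688051-16709611, plus strand, ENSMUSG00000025779.10). At estrus it stood at 9.39, 11.4 and 10.4 CPM, and in INT at 6.58, 4.47, 3.59 and 3.22 CPM. The order of the 4 INT libraries was the same as for Tlr4, with replicate 1 the highest and replicate 4 the lowest. Ly96 was downregulated in INT (logFC -1.22 ± 0.29, FDR 0.00238), SVX (-1.30 ± 0.29, FDR 0.00113), SVX_VAS (-1.16 ± 0.29, FDR 0.00292) and VAS (-1.04 ± 0.29, FDR 0.0054). Over the 16 mated libraries it ran from 3.03 to 7.21 CPM with a median of 4.38, all below the estrous range.

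Cd14, the co-receptor that hands lipopolysaccharide to Tlr4 (chr18:36725067-36726798, minus strand, ENSMUSG00000051439.6), changed less. It stood at 64.6, 67.3 and 60.4 CPM at estrus, and at 72.7, 44.1, 27.5 and 53.1 CPM in INT. INT replicate 1 was above every estrous library and the other 3 were below, and the difference was not called (logFC -0.38 ± 0.27, FDR 0.274). Leaving out 1 library gave a logFC of -0.63 to -0.22 in INT (FDR 0.0611 to 0.505). SVX held 29.2, 44.4, 41.5 and 40.0 CPM, all below estrus (logFC -0.73 ± 0.27, FDR 0.0324). SVX_VAS held 45.6, 81.1, 45.6 and 46.0 CPM, with replicate 2 above estrus (logFC -0.23 ± 0.27, FDR 0.507). Without that library the logFC was -0.49 ± 0.26 (FDR 0.129, range over alternatives 0.129 to 0.711). VAS held 32.2, 49.2, 33.7 and 46.2 CPM, all below estrus (logFC -0.67 ± 0.27, FDR 0.0468). The calls in SVX and VAS were marginal: over the alternatives tried, the FDR ran from 0.00116 to 0.0964 in SVX and from 0.0203 to 0.127 in VAS. In SVX the call was lost when any estrous library or SVX replicate 1 or 4 was left out (FDR 0.0526 to 0.0873). In VAS it was lost when any estrous library or VAS replicate 1 or 3 was left out (0.0712 to 0.127), and without VAS replicates 2 and 3 the FDR was 0.108.

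Tlr2 recognises bacterial lipoproteins as a pair with Tlr1 or Tlr6 (chr3:83836272-83841767, minus strand, ENSMUSG00000027995.10). It stood at 51.8, 52.4 and 45.5 CPM at estrus, and at 34.5, 19.7, 12.3 and 14.4 CPM in INT. The 4 INT libraries again lay below estrus, with replicate 1 the highest (logFC -1.31 ± 0.38, FDR 0.00966, a level 2.47-fold lower). SVX held 13.1, 12.0, 16.5 and 18.3 CPM (logFC -1.74 ± 0.38, FDR 0.00107). SVX_VAS held 14.5, 32.1, 11.6 and 15.1 CPM, with replicate 2 more than double the next (logFC -1.44 ± 0.38, FDR 0.00446). VAS held 16.7, 37.7, 24.5 and 16.7 CPM, with replicates 2 and 3 the highest (logFC -1.06 ± 0.38, FDR 0.0248). The VAS call was lost when VAS replicate 1 (FDR 0.0581), VAS replicate 4 (0.0643), CONT replicate 1 (0.0611) or CONT replicate 2 (0.059) was left out, and it held without VAS replicates 2 and 3 (logFC -1.56, FDR 0.0095), over a range of 0.00505 to 0.0643 in all alternatives.

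Tlr1, the partner of Tlr2 (chr5:64924679-64933563, minus strand, ENSMUSG00000044827.10), stood at 30.6, 30.6 and 30.1 CPM at estrus. In INT it stood at 16.7, 14.8, 6.50 and 14.4 CPM. Every INT library lay below estrus, and replicate 3 lay well below the other 3 (logFC -1.21 ± 0.27, FDR 0.00156). SVX held 9.35, 11.6, 15.4 and 11.0 CPM (logFC -1.36 ± 0.27, FDR 0.000449). SVX_VAS held 12.1, 11.5, 11.9 and 11.3 CPM (logFC -1.38 ± 0.27, FDR 0.000492), a narrow range in which replicate 2 did not stand out. VAS held 14.8, 19.8, 17.4 and 9.11 CPM (logFC -0.99 ± 0.27, FDR 0.00506). Tlr6, the alternative partner of Tlr2, stood at 3.75 to 3.81 CPM at estrus and 3.25 to 4.92 CPM in INT and was not called (logFC 0.13 ± 0.26, FDR 0.717).

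Tlr3, the endosomal sensor of double-stranded RNA, signals through Ticam1 and not Myd88 (chr8:45395665-45411080, minus strand, ENSMUSG00000031639.12). It stood at 71.6, 60.1 and 70.5 CPM at estrus, and at 43.6, 44.9, 27.5 and 32.6 CPM in INT. All the INT libraries lay below estrus, with replicates 1 and 2 above 3 and 4. Tlr3 was downregulated in INT (logFC -0.86 ± 0.17, FDR 0.000551), SVX (-1.21 ± 0.17, FDR 2.03e-05), SVX_VAS (-1.15 ± 0.17, FDR 4.1e-05) and VAS (-0.82 ± 0.17, FDR 0.00066). Its exons overlap the antisense gene Gm45542, which held at most 3.75 CPM in any library. The kit keeps strand, but the strand setting used in counting is not given in the sources used here.

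Tlr5, the receptor for flagellin (chr1:182954788-182976044, plus strand, ENSMUSG00000079164.8), varied more than any other member, with an SD of log2 CPM of 1.20 over the 19 libraries. It stood at 11.3, 13.7 and 13.9 CPM at estrus, and at 9.23, 4.47, 3.02 and 2.45 CPM in INT. SVX held 4.21, 2.99, 1.68 and 2.44 CPM. Every INT and SVX library lay below estrus. SVX_VAS held 2.08, 26.9, 3.16 and 3.97 CPM, and VAS held 4.34, 26.0, 4.33 and 2.54 CPM. SVX_VAS replicate 2 and VAS replicate 2 were thus above every estrous library, at 485 and 557 counts, while the other 14 mated libraries were below. Tlr5 was called in SVX (logFC -2.19 ± 0.87, FDR 0.0413) and not in INT (-1.44 ± 0.85, FDR 0.180), SVX_VAS (-0.52 ± 0.84, FDR 0.642) or VAS (-0.47 ± 0.84, FDR 0.641). Without SVX_VAS replicate 2 it was called in SVX_VAS (logFC -2.08 ± 0.74, FDR 0.0267, range over alternatives 0.0267 to 0.885). Without VAS replicates 2 and 3 it was not called in VAS (-1.87 ± 0.92, FDR 0.102). The SVX call was itself lost when any estrous library or SVX replicate 2, 3 or 4 was left out, with an FDR of at most 0.0969. The epithelial marker sum was 2013 CPM in SVX_VAS replicate 2 and 743 CPM in VAS replicate 2, and the neutrophil marker sum was 19.2 and 57.2 CPM. Their part in these Tlr5 values was not tested.

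**Figure D2:**
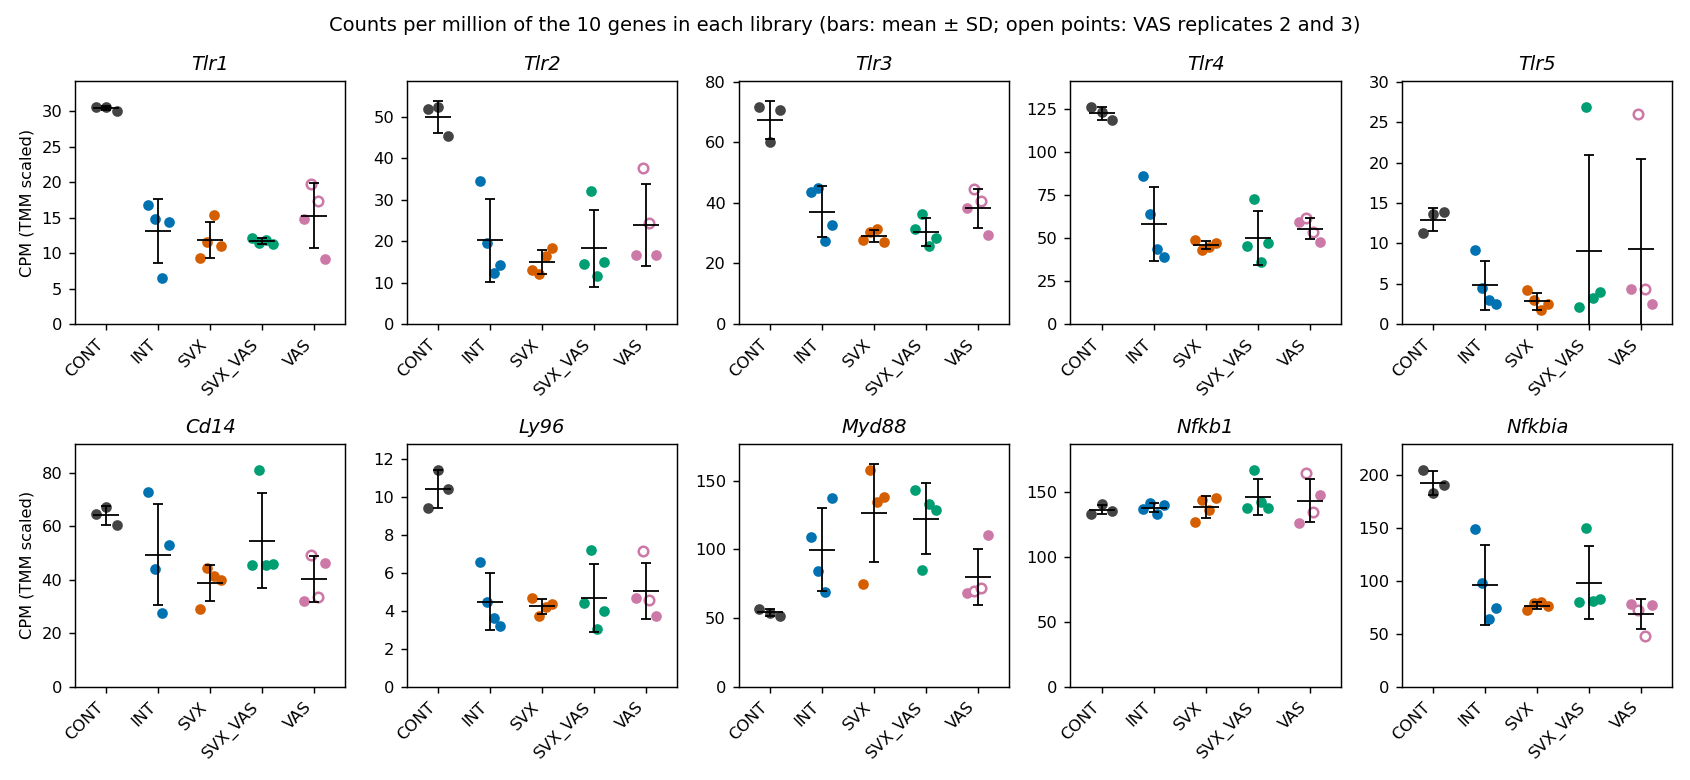
CPM (TMM scaled, vertical axes from 0) of the 10 genes in each of the 19 libraries by group, with bars for the mean and SD (cut at 0 for Tlr5) and open points for VAS replicates 2 and 3. Tlr1 to Tlr4, Ly96 and Nfkbia are below estrus in all 16 mated libraries and Myd88 is above estrus in all 16. The share of all genes separated over all 16 was not computed. Against single mated groups it was 55% (VAS) to 70.9% (SVX). For Tlr5, SVX_VAS replicate 2 (26.9 CPM) and VAS replicate 2 (26.0 CPM) lie above estrus.

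Myd88 couples all of these receptors except Tlr3 to the kinases of the Irak family (chr9:119335934-119341411, minus strand, ENSMUSG00000032508.8). It moved against them, from 56.8, 53.7 and 51.9 CPM at estrus to 109, 84.1, 68.8 and 138 CPM in INT. All 4 INT libraries lay above estrus, and replicate 4 was the highest and replicate 3 the lowest (logFC 0.88 ± 0.27, FDR 0.0131). SVX held 74.9, 158, 135 and 138 CPM (logFC 1.23 ± 0.27, FDR 0.00116). SVX_VAS held 144, 84.7, 133 and 128 CPM (logFC 1.18 ± 0.27, FDR 0.00177). In these groups SVX replicate 1 and SVX_VAS replicate 2 were the low libraries, although still above estrus. VAS held 68.3, 69.8, 72 and 111 CPM, above estrus in every library but not called (logFC 0.57 ± 0.27, FDR 0.082). Without VAS replicate 4, the highest, the logFC was 0.37 ± 0.26 (FDR 0.234). Without VAS replicates 2 and 3 the logFC in VAS was 0.75 ± 0.32 (FDR 0.061), and without SVX replicate 1 as well it was 0.75 and called (FDR 0.0328), within a range of 0.0328 to 0.234 over all alternatives.

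Exons of Myd88 overlap those of Acaa1a, a peroxisomal thiolase gene on the opposite strand. Acaa1a stood at 70.2 to 75.3 CPM at estrus and 86.1 to 112 CPM in INT (logFC 0.37 ± 0.17, FDR 0.0782), a smaller difference than that of Myd88, and it was not called. In SVX (0.43 ± 0.17, FDR 0.0377) and SVX_VAS (0.44 ± 0.17, FDR 0.037) Acaa1a passed the FDR but not the fold cutoff. In VAS its logFC was 0.04 ± 0.17 (FDR 0.851). If reads were counted without strand, those of the overlap cannot be told apart.

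Nfkb1 encodes p105, the precursor of the p50 subunit of NF-kB (chr3:135584655-135691547, minus strand, ENSMUSG00000028163.17). It stood at 134, 141 and 136 CPM at estrus and at 137, 142, 133 and 140 CPM in INT. These ranges coincided, and the logFC of 0.02 had a 95% interval of -0.17 to 0.20 (FDR 0.91). In SVX the interval was -0.17 to 0.21, in SVX_VAS -0.09 to 0.29 and in VAS -0.12 to 0.26, so a change of 1.5-fold lay outside all 4 intervals. Its SD of log2 CPM, 0.10, was the smallest of the 10 genes.

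Nfkbia encodes IkB-alpha, which retains NF-kB in the cytoplasm and is itself induced by NF-kB (chr12:55489410-55492647, minus strand, ENSMUSG00000021025.7). Its promoter, shown above, has the NF-kB match 29 to 20 bases before the start. It stood at 205, 183 and 190 CPM at estrus, and at 149, 97.9, 64.0 and 74.3 CPM in INT. All INT libraries lay below estrus, replicate 1 nearest to it (logFC -1.0 ± 0.26, FDR 0.00488). SVX held 72, 78.6, 79.7 and 75.8 CPM (logFC -1.33 ± 0.26, FDR 0.000424), a narrow range. SVX_VAS held 79.9, 149, 81.0 and 82.4 CPM (logFC -0.97 ± 0.26, FDR 0.00511), with replicate 2 nearest to estrus. VAS held 78.4, 71.9, 47.9 and 77.3 CPM (logFC -1.48 ± 0.26, FDR 0.000202).

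Levels can be compared between genes only per length, so counts were also divided by exon length (FPKM). At estrus Nfkbia was the most abundant per length at 122 ± 7.12 FPKM (SD, n = 3), followed by Cd14 at 40.8 ± 2.24, Tlr4 at 22.0 ± 0.70 and Myd88 at 21.0 ± 0.965. Tlr2 followed at 16.6 ± 1.27 and Tlr3 at 12.9 ± 1.23, with Nfkb1 at 11.3 ± 0.30, Ly96 at 10.2 ± 0.99, Tlr1 at 9.09 ± 0.08 and Tlr5 at 2.70 ± 0.30 FPKM. The estrous ranges of Tlr4 (21.3 to 22.7 FPKM) and Myd88 (20.1 to 22.0 FPKM) overlapped, with Tlr4 the higher in each of the 3 libraries. In INT, Myd88 stood at 38.8 ± 11.7 FPKM (n = 4) and Tlr4 at 10.5 ± 3.86. The ratio of Myd88 to Tlr4 in CPM was 0.437 to 0.450 at estrus and 1.27 to 3.51 in INT. That of Nfkbia to Nfkb1 was 1.30 to 1.53 at estrus and 0.480 to 1.08 in INT. Neither ratio overlapped between these groups. Tlr4 made up 34.4% to 35.1% of the summed FPKM of the 5 receptors at estrus and 30.8% to 39.7% in INT, ranges that overlapped.

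**Figure D3:**
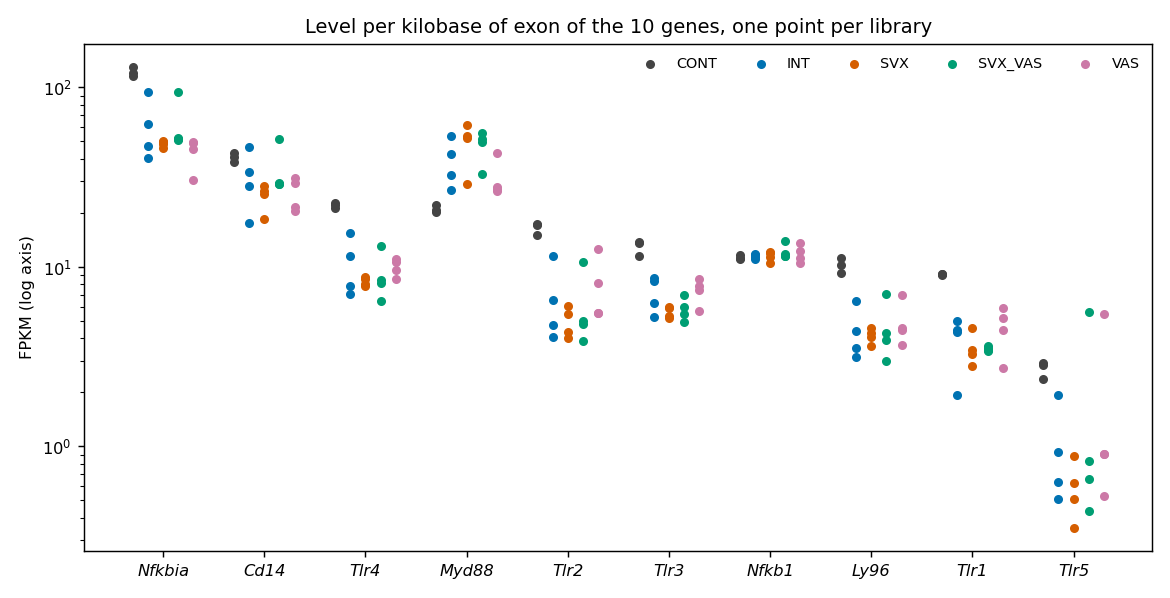
Level per kilobase of exon (FPKM, log axis) of the 10 genes, ordered by their estrous mean, with 1 point for each library coloured by group. Nfkbia is highest at estrus (122 FPKM) and Tlr5 lowest (2.70 FPKM), and Myd88 lies above Tlr4 in the mated groups but beside it at estrus.

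The mated groups were compared with one another to ask whether the male's surgery altered these genes. Effects of seminal fluid and of embryos cannot be told apart in these comparisons. None of the 10 genes was called in any of the 6 comparisons by edgeR, DESeq2 or limma-voom, and edgeR called 0% of all genes tested in each of them. DESeq2 called 3 genes in SVX against INT, 2 in SVX_VAS against INT, 1 in SVX against VAS and 27 in SVX_VAS against VAS. With limma-voom 1663 genes were called in VAS against INT, 1656 in SVX against VAS and 1807 in SVX_VAS against VAS, none of them a member. At an unadjusted p of 0.05, edgeR gave Tlr3 alone in SVX against INT, Tlr3 and Myd88 in SVX against VAS, Myd88 in SVX_VAS against VAS and no member in the other 3. Of all 17222 genes, 749, 2651 and 2520 passed that p in these 3 comparisons, and 339 in SVX_VAS against INT, 1831 in VAS against INT and 240 in SVX against SVX_VAS. Tlr3 was 1.27-fold lower in SVX than in INT (logFC -0.35 ± 0.16, 95% interval -0.68 to -0.01, adjusted p = 1.0). Myd88 was higher in SVX than in VAS by a logFC of 0.66 ± 0.25 (interval 0.14 to 1.18, FDR 0.304) and in SVX_VAS than in VAS by 0.61 ± 0.25 (interval 0.09 to 1.13, FDR 0.296). Without VAS replicates 2 and 3 these differences were 0.50 ± 0.31 (FDR 0.743) and 0.46 ± 0.31 (FDR 0.849). Leaving out 1 library gave 0.53 to 0.85 in SVX against VAS (lowest FDR 0.0528) and 0.53 to 0.81 in SVX_VAS against VAS (lowest FDR 0.0687). The intervals leave room for changes of some size: that of Tlr4 in SVX against INT was -0.80 to 0.12, in SVX_VAS against INT -0.67 to 0.25 and in VAS against INT -0.53 to 0.39. The Tlr5 intervals were wider, at -2.50 to 0.98 in SVX against INT and -0.78 to 2.62 in SVX_VAS against INT. Without SVX_VAS replicate 2 the Tlr5 logFC in SVX_VAS against INT turned from 0.92 ± 0.80 to -0.64 ± 0.68, uncalled in both fits. The libraries did not overlap for Cd14 and Nfkbia in SVX against SVX_VAS (2 of 10 genes, against 2.45% of all genes) and for Nfkbia in SVX_VAS against VAS (1 of 10, against 4.33%), and for no member in SVX against INT (2.6%), SVX_VAS against INT (1.75%), VAS against INT (1.23%) or SVX against VAS (4.2%). The FDRs of these 3 differences ranged from 0.343 for Nfkbia to 1.0 for both genes in SVX against SVX_VAS.

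The order of the group means differed between members, and the libraries of neighbouring mated groups in each order overlapped. Tlr1, Tlr2, Tlr3, Tlr5 and Ly96 had their highest mated mean in VAS, Tlr4 in INT, Cd14, Nfkb1 and Nfkbia in SVX_VAS and Myd88 in SVX. Without VAS replicates 2 and 3 the highest mated mean passed to INT for Tlr1 (13.1 CPM, against 12.0 in VAS), Tlr2 (20.2 against 16.7) and Tlr3 (37.1 against 33.9), and to SVX_VAS for Tlr5 (9.03 against 3.44) and Ly96 (4.65 against 4.21). The sign of VAS against INT turned for these 5 genes and for Nfkb1, all uncalled. Single libraries weighed on these means. SVX_VAS replicate 2 was the highest of the 16 mated libraries for 5 genes (Tlr5, Cd14, Ly96, Nfkb1 and Nfkbia) and VAS replicate 2 for Tlr1 and Tlr2. SVX_VAS replicate 2 also held 2301 CPM of Ltf, the estrogen-responsive epithelial gene lactotransferrin, against 16.7 to 194 CPM in the other SVX_VAS libraries, and INT replicate 1 held 2157 CPM against 27.4 to 643. Estrous libraries held 1875 to 2848 CPM. The part of these differences in the values of the 10 genes was not tested.

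Over the 19 libraries, likeness of pattern was measured as the root mean square difference of mean-centred log2 CPM, in which smaller is more alike. Among the 10 genes the closest pair was Tlr4 and Ly96 at 0.164, then Tlr3 and Tlr4 at 0.207 and Tlr1 and Tlr3 at 0.255. The points share depth, scaling and a common split between estrus and mating. Among 13716 protein-coding genes, the nearest to Tlr5 were Pmaip1 (0.300), Tspan33 (0.336) and Zc3h12a (0.409), against a median of 1.21. The nearest to Tlr2 were Pik3cg (0.187), Irak2 (0.223) and Dnase1l1 (0.231), against a median of 0.777, and the nearest to Tlr1 were Zfp456 (0.194), Ubash3b (0.208) and Sema4d (0.223), against 0.649. Pmaip1 is a pro-apoptotic Bcl2 family gene, Zc3h12a a ribonuclease that degrades inflammatory mRNA and Irak2 a kinase that binds Myd88 complexes.

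Of the other 7 Toll-like receptor genes tested, 5 rose in INT against CONT (20.9% of all genes were called higher) and none fell (12.7%), with a median logFC of 0.95 against -0.01 over all genes. Tlr12, a sensor of protozoan profilin in endosomes, rose most, from a mean of 1.72 CPM at estrus to 5.67 to 10.9 CPM in INT (logFC 2.13 ± 0.31, FDR 4.67e-05). Tlr7 (0.95 ± 0.34) and Tlr8 (1.06 ± 0.29), sensors of single-stranded RNA, Tlr11 (1.79 ± 0.49) and Tlr13 (0.76 ± 0.28) also rose, while Tlr6 and Tlr9 were not called. In SVX 5 of the 7 rose, in SVX_VAS 4 and in VAS 6, Tlr12 again the most in each, and none fell. Of all genes, 23.1% were called higher and 18.5% lower in SVX, 22.2% and 16.5% in SVX_VAS, and 23.3% and 17.3% in VAS. At estrus each of these 7 stood at 4.66 CPM or less on average.

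**Figure D4:**
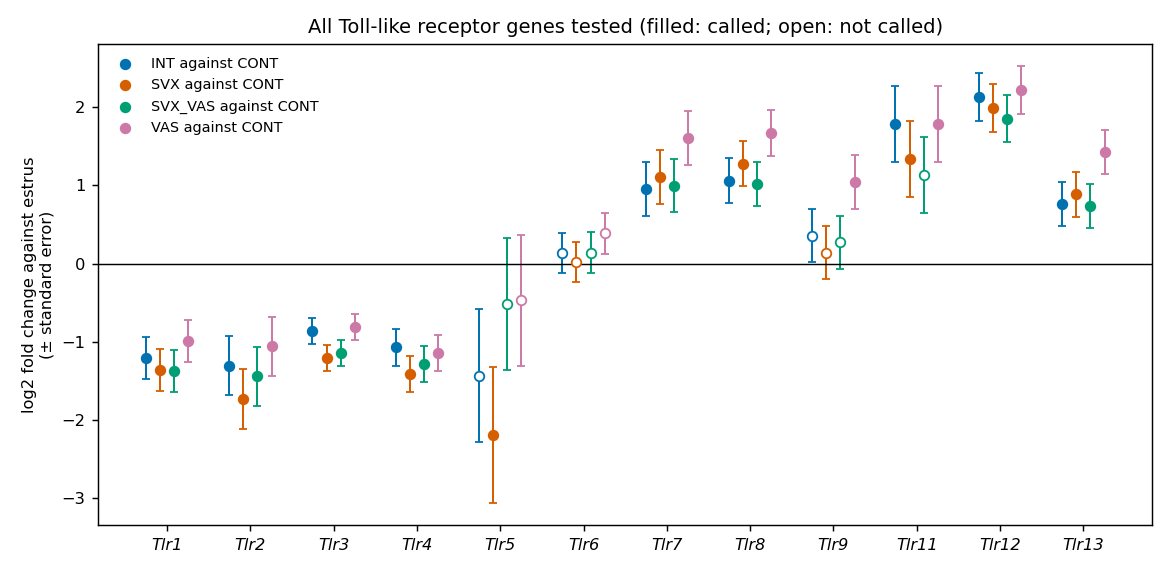
The log2 fold change against estrus (vertical axis, bars show the standard error) of the 12 Toll-like receptor genes tested in the 4 mated groups, with filled points for called genes and open points for genes not called. Tlr1 to Tlr4 lie below 0 and are called in every group, and Tlr7, Tlr8, Tlr12 and Tlr13 lie above 0 and are called in every group.

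Markers of leukocytes, endothelium and stroma were read beside the receptors, in a comparison where 20.9% of all genes were called higher and 12.7% lower. Of 8 macrophage markers 5 rose in INT, among them Adgre1 and Csf1r, and Cd68 fell, with a sum of 157 to 267 CPM at estrus and 260 to 346 in INT, 287 to 386 in SVX, 296 to 326 in SVX_VAS and 257 to 355 in VAS. Of 9 neutrophil markers 3 were tested, of which Csf3r rose and Ly6g fell (logFC -2.54 ± 0.79, FDR 0.0137). Their sum was 14.7 to 16.5 CPM at estrus, 10.4 to 17.1 in INT, 8.89 to 13.2 in SVX, 9.89 to 19.2 in SVX_VAS and 15.1 to 72.7 in VAS, and Elane had no read in 17 of the 19 libraries. All 8 endothelial markers rose, from 227 to 331 CPM at estrus to 767 to 1113 in INT, and 4 of 8 stromal markers rose. The stromal sum was 2027 and 2330 CPM in VAS replicates 2 and 3 and 6314 to 10525 CPM in the other 17 libraries. Of the other leukocyte lists, 3 of 5 monocyte markers tested, 4 of 5 of dendritic cells, 6 of 6 of T and NK cells and 1 of 1 of B and plasma cells rose in INT and none fell. Of 5 red blood cell markers 4 rose, from a sum of 27.2 to 39.2 CPM at estrus to 55.2 to 96.0 in INT, and of 8 smooth muscle markers 1 rose. The eosinophil sum was lower in every mated library, going from 19.7 to 23.7 CPM at estrus to 3.99 to 5.98 in INT, 1.89 to 4.02 in SVX, 3.04 to 5.99 in SVX_VAS and 5.44 to 9.78 in VAS, and of its 2 markers tested Il5ra fell in INT (logFC -3.69) and Ccr3 was not called. The part of any of these, or of the fall in epithelial markers, in the values of the 10 genes was not tested.

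Among co-receptors and chaperones, 4 of 8 genes tested rose in INT (20.9% of all genes) and none fell (12.7%). Nrros, a negative regulator of Toll-like receptors, rose most (logFC 1.47 ± 0.21, FDR 4.23e-05), and it was also the gene with the largest rise in the other 3 groups. Lbp, which delivers lipopolysaccharide to Cd14, rose by a logFC of 0.74 ± 0.21 (FDR 0.0076). In SVX 3 genes rose, in SVX_VAS 4, and in VAS 3 rose and Hsp90b1, the chaperone that folds these receptors, fell (logFC -1.31 ± 0.40, FDR 0.0102). In these groups, in that order, 23.1%, 22.2% and 23.3% of all genes were called higher and 18.5%, 16.5% and 17.3% lower.

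Among the adaptors and kinases other than Myd88, 5 of 19 genes tested fell in INT (12.7% of all genes) and none rose (20.9%). Irak2 fell most (logFC -1.22 ± 0.32, FDR 0.00482), with Irak4 (-1.12 ± 0.17), the kinase Myd88 binds, Tirap (-1.09 ± 0.19), the bridge between Tlr2 or Tlr4 and Myd88, Ticam1 (-0.68 ± 0.11), the adaptor of Tlr3, and Ikbkg (-0.61 ± 0.08), the regulatory subunit of the IkB kinase. Of these, exons of Irak2, Irak4, Tirap and Ikbkg overlap genes on the opposite strand, as do those of Hsp90b1, Cd180, Irf7, Irf1, Cxcl10, Vcam1, Tnc and Fn1. In SVX and SVX_VAS 5 genes fell (18.5% and 16.5% of all genes) and none rose (23.1% and 22.2%), with Irak2 again falling most. In VAS 6 fell, Irak4 most (logFC -1.44 ± 0.17, FDR 6.71e-06), and Map3k8 rose (0.72 ± 0.25, FDR 0.0211). Of all genes in VAS, 17.3% were called lower and 23.3% higher. Ticam2 was below the filter and not tested.

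Among the 10 other transcription factors, Relb, a subunit of NF-kB, rose (logFC 0.95 ± 0.20, FDR 0.00108) and 3 fell: Fos (-1.13 ± 0.36, FDR 0.0165), Irf7 (-1.10 ± 0.33) and Irf1 (-0.74 ± 0.16). Of all genes in INT, 20.9% were called higher and 12.7% lower. The numbers were 1 higher and 3 lower in all 4 mated groups (of all genes 23.1% and 18.5% in SVX, 22.2% and 16.5% in SVX_VAS and 23.3% and 17.3% in VAS), with Relb the riser and Irf7 falling most in SVX (-1.78 ± 0.33), SVX_VAS (-1.26 ± 0.33) and VAS (-1.21 ± 0.33).

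Among 19 inhibitors other than Nfkbia, 3 rose and 2 fell in INT, shares no larger than the 20.9% and 12.7% of all genes. Sarm1, an adaptor-like protein that restrains Ticam1, rose most (logFC 2.45 ± 0.36, FDR 5.88e-05), from a mean of 0.575 CPM to 1.89 to 4.51 CPM, and rose most in the other 3 groups too. Nfkbiz fell most in INT (-1.03 ± 0.41, FDR 0.0468) and VAS (-1.07 ± 0.41, FDR 0.0334), Zc3h12a in SVX (-2.24 ± 0.80, FDR 0.0241) and Sigirr, an inhibitory receptor of the interleukin 1 family, in SVX_VAS (-0.98 ± 0.14, FDR 4.48e-05). In SVX 5 rose and 4 fell, against 23.1% and 18.5% of all genes. In SVX_VAS and in VAS 5 rose and 2 fell, against 22.2% and 16.5% of all genes in SVX_VAS and 23.3% and 17.3% in VAS.

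Of 28 genes induced by NF-kB or interferon in other settings, 16 were tested. In INT 6 rose and 2 fell, against 20.9% and 12.7% of all genes. Acod1, the itaconate-producing enzyme, rose most in all 4 groups, in INT from a mean of 0.308 CPM to 51.4 to 164 CPM (logFC 8.31 ± 0.88, FDR 4.64e-06). The adhesion genes Icam1 (2.03 ± 0.28), Vcam1 (1.69 ± 0.42) and Sele (4.36 ± 0.70) rose, as did Cxcl10 (1.52 ± 0.46) and Ccl5 (1.19 ± 0.41). The interferon-stimulated Ifit1 (-1.25 ± 0.40, FDR 0.0167) and Isg15 (-1.03 ± 0.33) fell. Ifit1 fell most in INT and VAS, Isg15 in SVX_VAS (-1.13 ± 0.33, FDR 0.00905) and Lcn2, an antibacterial secreted protein, in SVX (-7.16 ± 2.26, FDR 0.0126). The counts were 5 higher and 5 lower in SVX, 8 and 2 in SVX_VAS and 9 and 2 in VAS, against 23.1% and 18.5%, 22.2% and 16.5%, and 23.3% and 17.3% of all genes. Tnf, Il6, Il12b, Il23a, Cxcl1, Cxcl2, Ccl2, Ccl3, Ccl4, Ccl20, Csf2 and Ifnb1 were below the filter and not tested.

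Of 17 reported endogenous ligands of these receptors, 10 were tested. The matrix genes Tnc (logFC 2.96 ± 0.53, FDR 0.000289), Vcan (1.85 ± 0.26), Bgn (1.61 ± 0.25) and Fn1 (1.94 ± 0.35) rose in INT, and the heat shock gene Hspa1b fell (-1.95 ± 0.39, FDR 0.000671). Hspa1b is nearly identical in sequence to Hspa1a, so reads could be split between them. Tnc rose most in every mated group. The counts were 4 higher and 3 lower in SVX, where Sftpd, a surfactant protein, fell most (-4.37 ± 1.53, FDR 0.0222), 4 and 2 in SVX_VAS, and 4 and 3 in VAS. S100a8, S100a9, Fgb, Camp, Defb1, Defb2 and Sftpa1 were not tested. Over the 7 lists, 23 of 89 genes tested were called higher and 13 lower in INT, with 23 and 20 in SVX, 26 and 14 in SVX_VAS and 29 and 17 in VAS. Of all genes tested, 20.9% were called higher and 12.7% lower in INT, 23.1% and 18.5% in SVX, 22.2% and 16.5% in SVX_VAS and 23.3% and 17.3% in VAS. No listed gene was called in the comparisons between mated groups.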

How the data were processed

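The deposited counts are whole reads per gene, not normalized. The authors made stranded total RNA libraries (TruSeq), sequenced paired ends, trimmed adapters with AdapterRemoval version 2, aligned to GRCm38/mm10 with STAR and counted with featureCounts. Versions of STAR and featureCounts are not given in the sources used here. The 10 genes and the 7 pathway lists were chosen with earlier results of these data known. Groups came from the description prefixes. The 17222 genes that reached 3 CPM in 3 or more of 19 libraries were tested with edgeR 4.0.16 in R 4.3.3. TMM factors were used, with all 5 groups in one quasi-likelihood fit (14 residual degrees of freedom) and Benjamini-Hochberg adjustment. Genes were called at FDR 0.05 and a log2 fold change of 0.58, the study's cutoffs. At these cutoffs the study reported far fewer genes between intact mating and estrus, almost all of them upregulated. Here 5791 genes were called in INT against CONT, 2192 of them lower. The cause of this difference was not tested. The test was tried on simulated counts. DESeq2 1.42.0, limma-voom (limma 3.58.1), other filters and size factors, 2 groups only, a replicate block and leaving out libraries were alternatives. Leaving out VAS replicates 2 and 3 alone was added after seeing the data. Beside the 10 members, the genes named are those with the largest called rise and fall in each list, genes under the filter, the 3 most alike genes of the 3 most variable members, and, chosen after their values were seen, other called genes of a list, Acaa1a, Gm45542, Ltf, Lbp and the markers. FPKM used the deposited exon lengths, and symbols came from GENCODE vM21. Intervals and floors cover counting error or the spread between libraries only. Total counts were 12661266 to 31781270, and the lowest member count of 23 limits Tlr5 most.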

Additional observations from a re-analysis of the deposited data

Results flagged for a closer look

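In 40 groups of 4 libraries (10 genes in 4 mated groups), 5 held a library far from the other 3 by Dixon's test on log2 CPM, where chance gives about 2. Tlr1 in INT replicate 3 stood at 6.50 CPM, against 14.4 to 16.7 CPM in the other INT libraries. Myd88 in VAS replicate 4 stood at 111 CPM, against 68.3 to 72. The other 3 were in SVX_VAS replicate 2: Cd14 at 81.1 CPM against 45.6 to 46.0, Nfkb1 at 167 CPM against 138 to 142, and Nfkbia at 149 CPM against 79.9 to 82.4. On the CPM scale the test found 7, of which 4 were the same (all but Tlr1) and 3 were others: Tlr2 (32.1 CPM) and Tlr5 (26.9 CPM) in SVX_VAS replicate 2 and Tlr5 in VAS replicate 2 (26.0 CPM). The cause of each was not tested.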

How the results depend on the processing

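Over all alternatives, the number of the 10 genes called stayed at 7 to 8 in INT, 7 to 9 in SVX, 7 to 8 in SVX_VAS and 5 to 7 in VAS against CONT, and at 0 between mated groups, while the genes called over all ran from 4924 to 8283, 6474 to 9836, 5776 to 9285 and 5712 to 9798. Leaving out 1 library gave 7, 7 to 8, 7 to 8 and 5 to 7. Of 1750 alternative values of the members' logFC, 27 lost their call, 3 gained one and none of the called values changed sign. Beyond the calls in Tlr2, Tlr5, Cd14 and Myd88 given above, Tlr5 was called in INT when only INT and CONT were fitted (FDR 0.0232), and its call in SVX was lost with limma-voom (0.0582) and without the filter on low counts (0.0531). Over all genes, limma-voom called 1663 genes in VAS against INT, 1656 in SVX against VAS and 1807 in SVX_VAS against VAS, and DESeq2 3 in SVX against INT, 2 in SVX_VAS against INT, 1 in SVX against VAS and 27 in SVX_VAS against VAS, where edgeR called 0. Leaving out 1 library gave edgeR up to 578, 685 and 575 calls in the 3 comparisons with VAS. The cause was not tested.

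The groups share replicate numbers, but the labels state no pairing, so the numbers were not taken as pairs. Deviations of same-numbered libraries from their group means correlated from -0.69 to 0.58. With so few libraries per mean, these correlations cannot exclude a batch shared by number. With a replicate block, 7 genes were called in INT, 8 in SVX, 7 in SVX_VAS and 6 in VAS against CONT, beside 5606, 6923, 6411 and 6779 over all genes, and 0 between mated groups. The block moved Cd14 past the threshold in SVX (FDR 0.0622) and VAS (0.0731).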
